A study of Mus musculus with 5 samples.

Results

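The genes examined here are those of the mouse major histocompatibility complex (MHC) and of the machinery that loads its proteins with antigen. They were chosen by name: every annotated gene whose symbol begins with H2-, together with B2m, Cd74, Ciita, Nlrc5, Tap1, Tap2, Tapbp, Tapbpl, Erap1, Cd1d1 and Mr1. This gave 59 of 57186 annotated genes, of which 45 belong to the class I side and 14 to the class II side. A pair of gene IDs carries the symbol H2-K2, and they overlap each other. Of the 59 members, 40 passed the filter on low values and were tested (31 class I and 9 class II), within a table of 16254 tested genes.

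RNA-seq was done on T follicular regulatory (Tfr) cells, CD4 T cells that carry the regulatory factor Foxp3 and restrain germinal centre antibody responses. Mouse spleens were the source, and the gate was live CD4+, Foxp3+, CXCR5+, PD-1+ and ICOS+, 21 days after imiquimod, an agonist of endosomal Toll-like receptors given to all mice. The WT group (3 libraries) came from Foxp3-GFP reporter mice, and the Cebpa-KO group (2 libraries) from Foxp3-Cre Cebpa-flox/flox mice, in which Cre driven from Foxp3 deletes the transcription factor C/EBPα in Foxp3-expressing cells. Each library was a pool of more than 2 mice, so the spread between libraries is a spread between pools. The groups differ in the Foxp3 allele (GFP or Cre) as well as in Cebpa, and these cannot be told apart here. Strain, sex and age are not given in the labels.

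MHC class I molecules pair a heavy chain with β2-microglobulin and show peptides from inside the cell to CD8 T cells. The peptides are cut by the proteasome, carried into the endoplasmic reticulum by the transporter Tap1/Tap2, trimmed by Erap1 and loaded with the help of tapasin (Tapbp), calreticulin and related chaperones. MHC class II molecules show peptides from endosomes to CD4 T cells, are guided there by the invariant chain Cd74 and are loaded by H2-DM under the restraint of H2-DO. Class I is made by nearly all nucleated cells, whereas in mice classical class II is made chiefly by B cells, dendritic cells and macrophages.

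The promoters of 4 class I heavy chains are shown because the 2 genes that rose in Cebpa-KO, H2-Q6 and H2-Q7, can be set beside the classical genes H2-K1 and H2-D1, which did not pass the test. Each is the stretch of 200 bases before the annotated start in RefSeq, on build GRCm38.p6, which differs from the build of the expression tables. The windows are chr17:34000348-34000547, minus strand, for H2-K1, chr17:35262894-35263093, plus strand, for H2-D1, chr17:35424650-35424849, plus strand, for H2-Q6 and chr17:35438955-35439154, plus strand, for H2-Q7. Capitals mark GGGATTCCC (a κB core), TTTCACTTC (the core of the class I interferon element) and CCAAT or its reverse complement (the Y box), each searched on both strands.
H2-K1: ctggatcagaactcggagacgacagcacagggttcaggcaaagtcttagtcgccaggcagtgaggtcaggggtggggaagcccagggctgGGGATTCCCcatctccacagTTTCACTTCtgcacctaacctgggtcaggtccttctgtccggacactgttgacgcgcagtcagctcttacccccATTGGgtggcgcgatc
H2-D1: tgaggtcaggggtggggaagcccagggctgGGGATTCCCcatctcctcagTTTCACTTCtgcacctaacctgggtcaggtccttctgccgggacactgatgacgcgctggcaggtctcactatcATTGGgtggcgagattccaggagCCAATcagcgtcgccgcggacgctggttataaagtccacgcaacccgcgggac
H2-Q6: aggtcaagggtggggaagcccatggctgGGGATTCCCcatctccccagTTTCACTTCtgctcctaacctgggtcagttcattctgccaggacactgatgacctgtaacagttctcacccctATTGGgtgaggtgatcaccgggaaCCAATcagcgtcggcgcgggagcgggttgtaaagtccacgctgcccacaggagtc
H2-Q7: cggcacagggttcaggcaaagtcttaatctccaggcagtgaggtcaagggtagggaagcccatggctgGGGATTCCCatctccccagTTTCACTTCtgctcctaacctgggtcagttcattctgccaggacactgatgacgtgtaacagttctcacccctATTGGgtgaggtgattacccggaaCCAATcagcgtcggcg

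All 4 windows held all 3 motifs. In the best local alignment, the H2-Q6 and H2-Q7 windows were identical at 156 of 161 aligned positions (96.9%), those of H2-K1 and H2-D1 at 127 of 139 (91.4%), and those of H2-D1 and H2-Q7 at 139 of 164 (84.8%). Of 32851 promoter windows of the same length in the table, 0.213% held GGGATTCCC, 0.307% held TTTCACTTC and 29.4% held CCAAT. The table matched 36 members whose sequence can be shown, 23 of them tested. Among those 23, GGGATTCCC was present in H2-D1, H2-K1, H2-Q6 and H2-Q7 alone, TTTCACTTC in those 4 and H2-M3, H2-Q4 and H2-Q10, and CCAAT in 18. The motifs thus did not separate the pair that rose from the pair that did not.

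Class II windows are shown for H2-Eb1 and H2-DMb2, which shared their first and second highest library, and for H2-Ob, which did not follow them and fell in Cebpa-KO. They lie at chr17:34305667-34305866, plus strand, for H2-Eb1, chr17:34145049-34145248, plus strand, for H2-DMb2 and chr17:34238705-34238904, plus strand, for H2-Ob, on the same build. Capitals mark the Y box as above and AACNGATG (an X box core, both strands), the site class read by the RFX complex.
H2-Eb1: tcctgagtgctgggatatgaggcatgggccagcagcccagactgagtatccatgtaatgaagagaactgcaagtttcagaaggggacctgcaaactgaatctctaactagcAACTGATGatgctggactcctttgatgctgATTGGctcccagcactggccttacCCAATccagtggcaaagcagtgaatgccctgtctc
H2-DMb2: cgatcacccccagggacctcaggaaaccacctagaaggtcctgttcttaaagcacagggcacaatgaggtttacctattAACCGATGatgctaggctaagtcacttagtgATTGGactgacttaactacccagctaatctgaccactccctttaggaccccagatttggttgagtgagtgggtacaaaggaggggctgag
H2-Ob: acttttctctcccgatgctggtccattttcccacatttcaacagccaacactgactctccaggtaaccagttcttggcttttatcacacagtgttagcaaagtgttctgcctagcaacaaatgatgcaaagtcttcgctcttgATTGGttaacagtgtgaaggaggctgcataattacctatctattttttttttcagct

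AACNGATG was found in 1.55% of all promoter windows and, among the 23, in H2-Eb1, H2-DMb2 and H2-DMb1. H2-Ob held a Y box and no exact run of these X box letters in this window, although it held the similar run aacaaatg. H2-Aa, which had the same first and second library as H2-Eb1, also held a Y box and no AACNGATG. The search took exact matches alone, and these X box letters thus did not separate H2-Ob from H2-Aa.

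Depth was even, at 6.76 to 7.08 gigabases aligned per library, with 15250 to 15691 genes at a TPM of 1 or more (TPM is StringTie's abundance per transcript length, relative to all transcripts of a library). All levels below are TPM after scaling each library by its median ratio to the others, and where each library's value is given they are in the order of the replicate numbers. The targeted gene was measured first: Cebpa stood at 12.9, 17.7 and 12.8 in WT replicates 1, 2 and 3 and at 0.317 and 0.550 in Cebpa-KO replicates 1 and 2 (exact permutation test, two-sided, p = 0.1, the smallest that 10 splits allow). Foxp3 itself, although a sort marker, reached 83.0, 107 and 105 in the WT pools but just 6.74 and 5.58 in the Cebpa-KO pools. Of 8 T cell marker genes, 4 were lower in Cebpa-KO at an adjusted p under 0.05 in limma. Of 6 genes of the Treg and Tfr gate 5 were lower, beside 9.82% of all genes. The groups did not overlap for any of the 8 or the 6, against 56.7% of all genes without overlap. Cd3e stayed at 1189.5 or above in every library. WT replicate 3 stood apart from the other WT libraries in markers of other cells and in the heat shock genes Hspa1a and Hspa1b. Its plasma cell markers summed to 561 TPM, against 57.7 and 34.6. For both heat shock genes it lay with the Cebpa-KO libraries, far above WT replicates 1 and 2. Hspa1b TPM was 1.87 (WT replicate 1), 1.33 (WT replicate 2), 880 (WT replicate 3), 1419.8 (Cebpa-KO replicate 1) and 1497.5 (Cebpa-KO replicate 2). Hspa1a TPM, listed likewise, was 0.911, 0.684, 690, 1147 and 1238. The cause of this split within WT was not tested.

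In the class I set, 3 of 31 tested members were higher in Cebpa-KO (H2-Q6, H2-Q7 and Erap1) and 3 were lower (Cd1d1, H2-Q2 and H2-Q3) at an adjusted p under 0.05 in limma. H2-Q3 passed the filter through the WT libraries alone, so its call could only be a fall. Over all 16254 genes, 9.93% were called higher and 9.82% lower, so the class I shares of 9.68% in each direction were near the background. In the class II set, none of the 9 tested members was called higher and 1, H2-Ob, was called lower. Among the 9, 2 had an unadjusted p under 0.05, both of them lower. Of all 16254 genes, 6113 had an unadjusted p under 0.05, and 19.7% were called in either direction. The median log2 difference, Cebpa-KO minus WT, was -0.33 over class I and 0.40 over class II, beside 0.01 over all genes. The class II median was 0.92 for Cebpa-KO replicate 1 and -0.22 for replicate 2, each against the WT mean, and the class I medians were -0.42 and -0.22. Libraries of the 2 groups did not overlap for 19 of 31 class I members (61.3%) and 2 of 9 class II members (22.2%), against 56.7% of all genes.

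**Figure D1:**
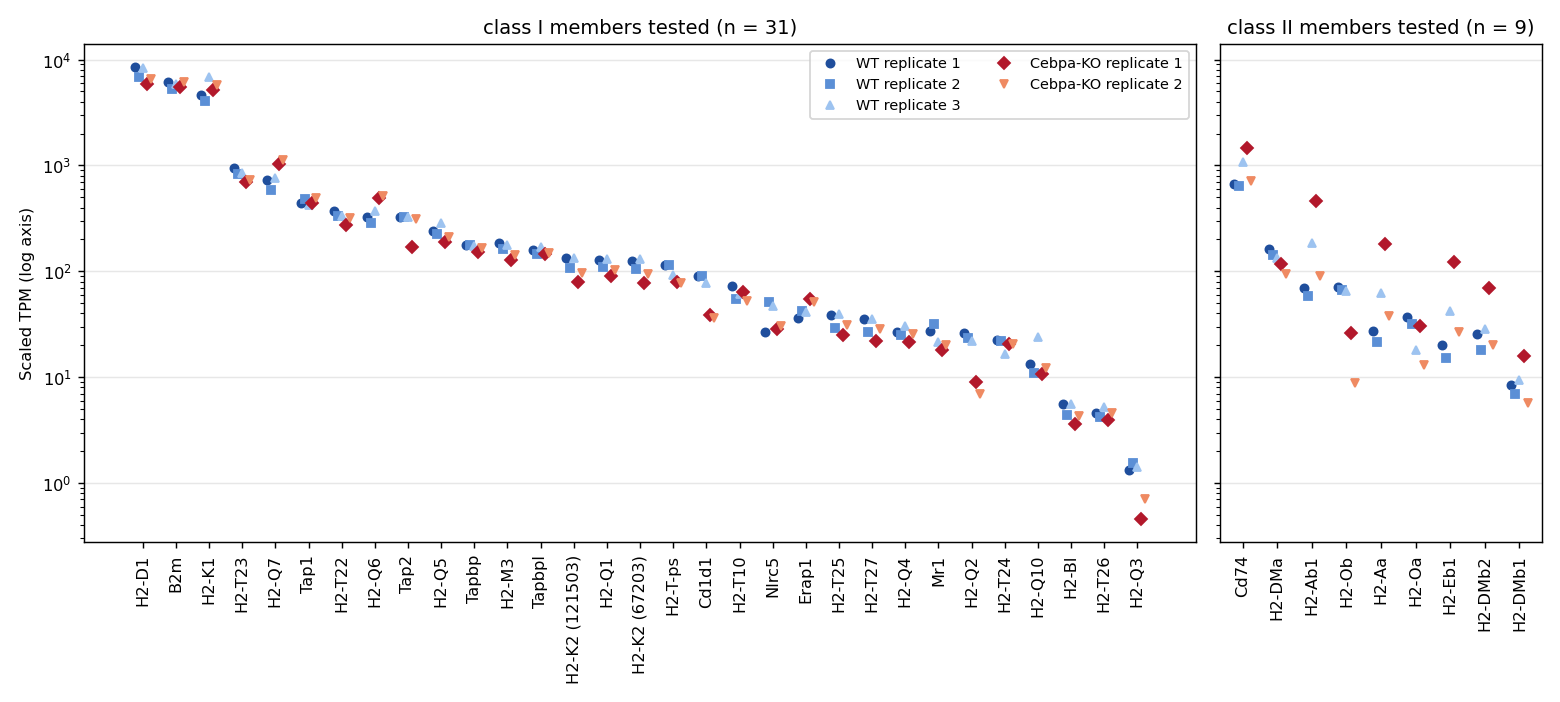
Level of each tested member in each of the 5 libraries, as scaled TPM on a log axis. Class I members are on the left and class II members on the right, ordered by their WT mean, and the digits after H2-K2 tell its 2 gene IDs apart. WT points are blue and Cebpa-KO points are red or orange. For H2-Aa, H2-Ab1 and H2-Eb1 the highest point is Cebpa-KO replicate 1 and the next is WT replicate 3.

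**Figure D2:**
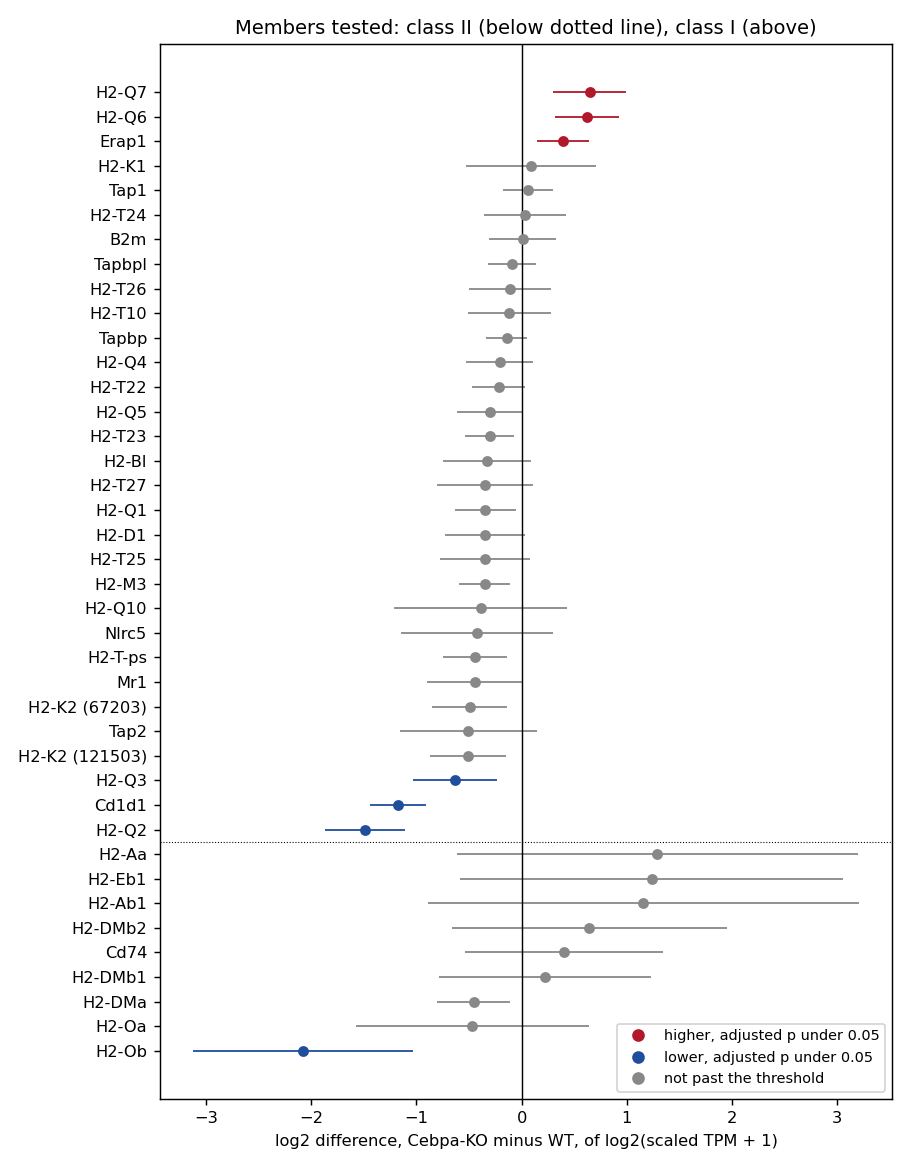
Log2 difference, Cebpa-KO minus WT, with its 95% confidence interval from limma, for the 40 tested members. Class II members are below the dotted line. Coloured points passed the threshold: 3 class I members higher, 3 lower, and H2-Ob lower. Of the 3 lower, H2-Q3 passed the filter through the WT libraries alone.

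Among class I heavy chains the most abundant were the classical pair, which bind peptide for CD8 T cells. H2-D1 was at 8566, 6829 and 8324 TPM in the WT pools and at 5882 and 6494 in the Cebpa-KO pools. Both Cebpa-KO libraries were below all 3 WT libraries, but the difference did not pass the test (log2 -0.35 ± 0.15 SE, adjusted p = 0.158). H2-K1 was at 4668, 4037 and 6876 in the WT pools and at 5109 and 5709 in the Cebpa-KO pools, so the groups overlapped (log2 0.09 ± 0.25 SE, adjusted p = 0.805).

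For H2-K1 that value depended on which row of the tables was read. The annotated gene held 58.1%, 58.8% and 89.4% of the TPM of the locus that StringTie assembled there in WT, and 96.4% and 100% in Cebpa-KO. The assembled locus was at 7994, 7119.7 and 7564 TPM in the WT pools and at 5292 and 5739 in the Cebpa-KO pools, with no overlap between groups and a log2 difference of -0.44 (adjusted p = 0.145). For H2-D1 the annotated gene held 90.2% to 100% of its locus. The direction for H2-K1 therefore turned with the row used, and neither value passed the test.

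B2m, the light chain that every class I heavy chain needs, was at 6135, 5279 and 5922.5 TPM in the WT pools and at 5544 and 6089 in the Cebpa-KO pools. The groups overlapped (log2 0.01, 95% interval -0.31 to 0.33). TPM summed over the 36 annotated heavy chain genes was set against B2m. It was 2.74, 2.64 and 3.16 times B2m in WT and 2.58 and 2.60 times in Cebpa-KO. These sums count the annotated H2-K1 gene, which held 58.1%, 58.8% and 89.4% of its locus in WT. In Cebpa-KO it held 96.4% and 100%, so the ratios depend on the row used for H2-K1.

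H2-Q6 and H2-Q7 encode Qa-2, a non-classical class I protein held at the surface by a lipid anchor, and both rose. H2-Q7 (mm39 chromosome 17, 35658131-35662749) stood at 727, 586 and 759 TPM in the WT pools and at 1019.8 and 1134 in the Cebpa-KO pools, 1.56-fold higher (log2 0.65 ± 0.14 SE, adjusted p = 0.0323). H2-Q6 (chromosome 17, 35643826-35649031) stood at 325, 288 and 368 in the WT pools and at 487 and 519 in the Cebpa-KO pools, 1.54-fold higher (log2 0.63 ± 0.12 SE, adjusted p = 0.0259). Both Cebpa-KO libraries lay above all WT libraries for both genes.

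Within each library, H2-Q6 and H2-Q7 together made up 6.27%, 6.28% and 6.03% of heavy chain TPM in WT and 10.5% and 10.5% in Cebpa-KO. The ratio of H2-Q7 to H2-D1 was 0.0848, 0.0859 and 0.0912 in the WT pools and 0.173 and 0.175 in the Cebpa-KO pools. H2-K1 and H2-D1 together made up 78.0% to 81.3% in WT and 76.9% to 77.2% in Cebpa-KO. Both shares of heavy chain TPM count the annotated H2-K1 gene, which held less of its locus in WT than in Cebpa-KO.

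Reads of these genes can be shared between copies. Of the 75-base windows in H2-Q7 transcripts, 21.7% also occurred in another gene, most often H2-Q6, and the share was 17.9% for H2-Q6 and 20.7% for H2-Q5. H2-Q5, H2-Q6 and H2-Q7 fell in 1 assembled locus, at 1438, 1363 and 1671 TPM in the WT pools and 2057 and 2146 in the Cebpa-KO pools. There the groups also did not overlap, and the log2 difference of 0.51 missed the threshold (adjusted p = 0.0796). Leaving out WT replicate 1, WT replicate 2 or either Cebpa-KO library also ended both calls. Adjusted p values were then 0.0633 to 0.180, with log2 differences of 0.53 to 0.73. In all, 7 of 15 alternatives ended the H2-Q6 call and 8 ended the H2-Q7 call. H2-Q5 alone, an annotated gene between H2-Q4 and H2-Q6, was at 239, 223 and 283 in the WT pools and 191 and 212 in the Cebpa-KO pools.

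**Figure D3:**
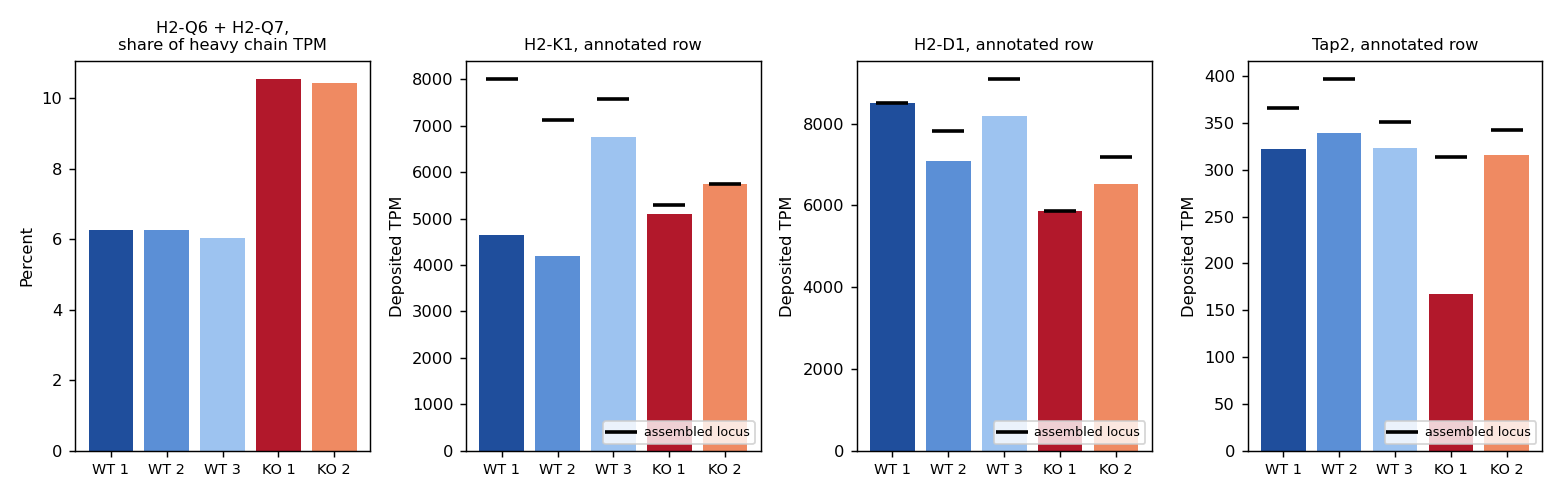
Left, H2-Q6 and H2-Q7 as a percent of all class I heavy chain TPM in each library, on annotated genes. The other panels show the deposited TPM of the annotated gene (bars) and of the assembled locus (black marks) for H2-K1, H2-D1 and Tap2. The share of H2-Q6 and H2-Q7 is 6.03% to 6.28% in WT and 10.5% in both Cebpa-KO libraries, and the bar falls farthest below its mark for H2-K1 in WT replicates 1 and 2 and for Tap2 in Cebpa-KO replicate 1.

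At the other end of the Q cluster, H2-Q2 (chromosome 17, 35561218-35565738) fell. It was at 26.3, 23.4 and 21.8 TPM in the WT pools and at 8.92 and 6.87 in the Cebpa-KO pools, 3.02-fold lower (log2 -1.49 ± 0.15 SE, adjusted p = 0.00725). All WT libraries were above both Cebpa-KO libraries. In the tables, assembled loci ran across H2-Q2, H2-Q3 and H2-Q4, and on those loci the log2 difference was -0.50 (adjusted p = 0.469). Without Cebpa-KO replicate 1 the adjusted p was 0.0608, and without replicate 2 it was 0.0739. In all, 4 of 15 alternatives ended the H2-Q2 call. H2-Q3 was at 1.34, 1.56 and 1.43 in the WT pools and at 0.452 and 0.709 in the Cebpa-KO pools. Its call (log2 -0.63, adjusted p = 0.0469) had to be a fall, since it passed the filter through the WT libraries alone, and 10 of 13 alternatives ended it.

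The remaining Q genes were not called. H2-Q1 was at 110 to 131 TPM in WT and 89.9 to 103 in Cebpa-KO (adjusted p = 0.0906), with 17.3% of its windows shared. H2-Q4 (log2 -0.21) and H2-Q10 (log2 -0.39) overlapped between groups, and H2-Q10 was highest in WT replicate 3, at 24.1 TPM against 10.6 to 13.2 elsewhere. Both H2-K2 entries, a gene beside H2-K1, were lower without overlap and missed the threshold (log2 -0.51 and -0.49, adjusted p = 0.0606 and 0.0647).

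None of the 8 tested H2-T genes was called. H2-T23 encodes Qa-1, which presents leader peptides to the CD94/NKG2 receptors. It was at 951, 838 and 851 TPM in the WT pools and at 699 and 725 in the Cebpa-KO pools, lower without overlap but short of the threshold (log2 -0.30 ± 0.09 SE, adjusted p = 0.0736). H2-T22, a ligand of some γδ T cell receptors, was at 331 to 369 in the WT pools and at 276 and 316 in the Cebpa-KO pools, also without overlap (adjusted p = 0.175). Its windows were shared with another gene at 26.1%, most with H2-T10, and for H2-T25 and H2-T27 the shares were 52.2% and 53.0%, so these rows are uncertain. H2-T10, H2-T24, H2-T26, H2-T25 and H2-T27 overlapped between groups. The pseudogene H2-T-ps (log2 -0.44, adjusted p = 0.0587) and H2-Bl (log2 -0.33, adjusted p = 0.210) did not overlap and were not called.

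H2-M3, which presents N-formylated peptides of bacteria and mitochondria, was the only H2-M gene above the filter. It was at 184, 161 and 175 TPM in the WT pools and at 128 and 143 in the Cebpa-KO pools (log2 -0.35 ± 0.10 SE, adjusted p = 0.0592). The 2 groups did not overlap and no transcript window was shared with another gene. The other 13 H2-M genes and H2-T3 were below the filter, none of them above 0.544 TPM in any library.

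Outside the MHC, the lipid-presenting molecule Cd1d1 (chromosome 3, 86903141-86906748), which shows glycolipids to natural killer T cells, fell. It was at 90.9, 90.4 and 76.9 TPM in the WT pools and at 38.6 and 36.4 in the Cebpa-KO pools, 2.29-fold lower (log2 -1.17 ± 0.11 SE, adjusted p = 0.00648). The Cebpa-KO libraries were close to each other and far below all 3 WT libraries. Over 15 alternatives the log2 difference ran from -1.26 to -1.02 and the call was lost in 2, without Cebpa-KO replicate 1 (adjusted p = 0.0661) and without replicate 2 (0.0739). Of its transcript windows, 19.4% also occur in its neighbour Cd1d2. Mr1, which presents microbial vitamin B2 metabolites, was at 27.3, 31.8 and 21.3 in the WT pools and at 18.2 and 20.1 in the Cebpa-KO pools (log2 -0.45 ± 0.18 SE, adjusted p = 0.139), lower without overlap and not called.

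Of the class I machinery, Erap1 alone was called. This aminopeptidase of the endoplasmic reticulum (chromosome 13, 74787687-74841320) stood at 36.5, 41.8 and 41.5 TPM in the WT pools and at 54.4 and 50.9 in the Cebpa-KO pools, 1.32-fold higher (log2 0.39 ± 0.10 SE, adjusted p = 0.0486). The groups did not overlap, but 9 of 15 alternatives ended the call. Over all 15 the adjusted p ran from 0.0269 to 0.258. Without Cebpa-KO replicate 1 the log2 difference was 0.35, and without replicate 2 it was 0.44.

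The peptide transporter subunit Tap1 was at 441, 479.9 and 422 TPM in the WT pools and at 444 and 489 in the Cebpa-KO pools, with overlap (log2 0.06, 95% interval -0.18 to 0.29). Tap2 was at 324, 327 and 328 in the WT pools and at 168 and 314 in the Cebpa-KO pools (log2 -0.51, adjusted p = 0.215). Its low value in Cebpa-KO replicate 1 went with a small share of the assembled locus, 53.4% against 85.5% to 92.2% in the other 4 libraries, and the locus itself was at 351 to 396 in the WT pools and at 314 and 342 in the Cebpa-KO pools.

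Tapbp, which bridges Tap to empty class I, was at 174 to 178 TPM in the WT pools and at 152 and 167 in the Cebpa-KO pools (log2 -0.14, adjusted p = 0.236). Its relative Tapbpl, a peptide editor, overlapped between groups (log2 -0.09, adjusted p = 0.503). Nlrc5, the transactivator of class I genes, was at 26.7, 50.9 and 47.1 in the WT pools and at 28.6 and 30.6 in the Cebpa-KO pools. WT replicate 1 was the lowest library, so the groups overlapped (log2 -0.42 ± 0.29 SE, adjusted p = 0.329).

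For the classical class II chains, the highest and the second highest library came from different genotypes. H2-Ab1, the β chain of I-A, was at 68.9, 58.3 and 186 TPM in the WT pools and at 458 and 90.4 in the Cebpa-KO pools. Its partner H2-Aa was at 27.3, 21.3 and 63.0 in the WT pools and at 179 and 38.0 in the Cebpa-KO pools. H2-Eb1, the β chain of I-E, was at 20.2, 15.3 and 42.4 in the WT pools and at 121 and 26.5 in the Cebpa-KO pools. In all 3 genes Cebpa-KO replicate 1 was highest and WT replicate 3 second, and Cebpa-KO replicate 2 lay between WT replicates 1 and 3. The log2 differences of 1.16 to 1.29 had standard errors of 0.73 to 0.82 and adjusted p values of 0.271 to 0.349. Summed, the 3 chains were 4.90 times as high in Cebpa-KO replicate 1 than in replicate 2.

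The invariant chain Cd74, at 663, 643 and 1070.3 TPM in the WT pools and at 1461 and 711 in the Cebpa-KO pools, showed the same order (log2 0.40 ± 0.37 SE, adjusted p = 0.472). Both β chains of the peptide exchanger H2-DM shared the first and second library, but there Cebpa-KO replicate 2 was below WT replicate 1. H2-DMb2 was at 25.5, 17.98 and 28.5 in the WT pools and at 69.0 and 20.1 in the Cebpa-KO pools, and H2-DMb1 was at 8.44, 6.88 and 9.30 in the WT pools and at 15.9 and 5.72 in the Cebpa-KO pools. H2-DMb1 and H2-DMb2 share 19.1% and 19.9% of their transcript windows with other genes, mostly with each other. Without Cebpa-KO replicate 1, the log2 differences were below 0 for H2-Ab1 (-0.002), Cd74 (-0.11), H2-DMb2 (-0.22) and H2-DMb1 (-0.44). For H2-Aa and H2-Eb1, Cebpa-KO replicate 2 was above the WT mean (log2 0.18 and 0.16).

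Cebpa-KO replicate 1 first and WT replicate 3 second was the order of 6 of 9 class II members, 0 of 31 class I members and 492 of 16254 genes (3.03%). It was also the order of 10 of 11 tested B cell markers (all except Ighm, the IgM heavy chain), 5 of 5 neutrophil markers and 4 of 5 macrophage and monocyte markers, but of 0 of 4 plasma cell markers and not of the 1 dendritic cell marker tested. Plasma cell markers were highest in WT replicate 3, summing to 561 TPM there and to 230 and 72.9 in Cebpa-KO. The 11 B cell markers other than Ighm summed to 123, 110 and 178 TPM in WT and to 357 and 86.9 in Cebpa-KO. With Ighm the sums were 4043 to 6028 in WT and 2647 to 3476 in Cebpa-KO. Pax5, a defining B cell factor, was at 0.0156 to 0.0601 in the WT pools and at 0.520 and 0.0686 in the Cebpa-KO pools.

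The neutrophil markers summed to 19.35, 12.1 and 112.5 TPM in WT and to 347 and 86.5 in Cebpa-KO, and the macrophage and monocyte markers to 36.2 to 94.8 in WT and to 108.5 and 27.4 in Cebpa-KO. Of 8 dendritic cell markers only Zbtb46 was tested. Their sums were 3.60 to 7.40 in WT and 6.34 to 7.35 in Cebpa-KO, and Clec9a was listed at 0 in all 3 WT libraries. The part of RNA from other cells in the class II values was not tested, and in bulk samples fewer cells of a type and less RNA per cell cannot be told apart.

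**Figure D4:**
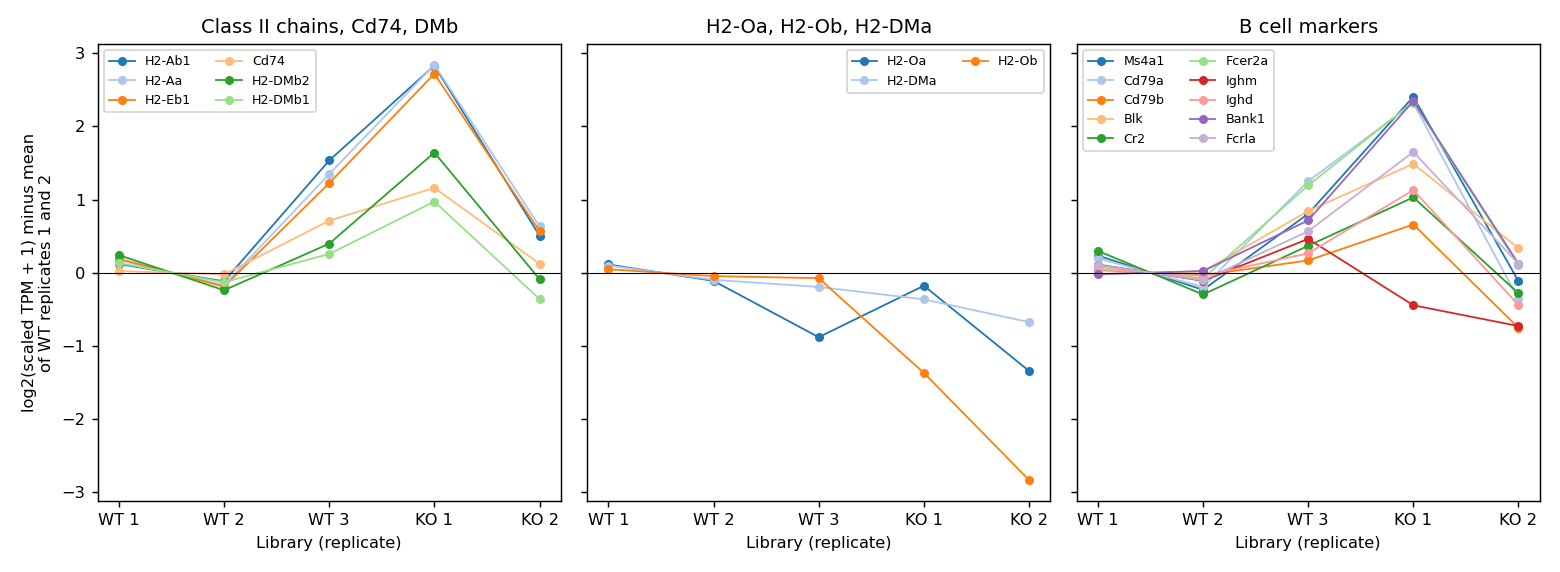
Each gene's log2(scaled TPM + 1) in each library, relative to the mean of WT replicates 1 and 2. Lines join the values of 1 gene and imply no order of libraries. The left panel (classical class II chains, Cd74 and the H2-DM β chains) and the right panel (10 of the 11 tested B cell markers) peak in Cebpa-KO replicate 1, apart from Ighm, whereas H2-Ob in the middle panel is lowest in the 2 Cebpa-KO libraries.

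H2-Ob was the class II member that fell. It encodes the β chain of H2-DO, the inhibitor of H2-DM (chromosome 17, 34457877-34473388). It was at 71.1, 66.6 and 65.3 TPM in the WT pools and at 26.0 and 8.77 in the Cebpa-KO pools, 3.89-fold lower (log2 -2.08 ± 0.42 SE, adjusted p = 0.0275). The 3 WT libraries lay close together, all above both Cebpa-KO libraries, which differed from each other. Without Cebpa-KO replicate 1 the log2 difference was -2.81 (adjusted p = 0.0171), and without replicate 2 it was -1.34 and the call ended (adjusted p = 0.0678). Leaving out WT replicate 1 or 2 also ended the call (0.0765 and 0.0853). In all, 5 of 15 alternatives ended it, among them no filter (adjusted p = 0.119) and WT replicate 3 as the only WT library.

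H2-Ob is not shared with another gene in any transcript window, and its annotated row held 95.5% to 98.9% of its assembled locus. Its partner H2-Oa, the α chain of H2-DO, was at 37.2, 31.7 and 18.2 in the WT pools and at 30.3 and 12.9 in the Cebpa-KO pools, so the groups overlapped (log2 -0.47 ± 0.44 SE, adjusted p = 0.480). H2-DMa, the α chain of H2-DM, was at 163, 143 and 133 in the WT pools and at 118 and 95.1 in the Cebpa-KO pools, lower without overlap and not called (log2 -0.46 ± 0.14 SE, adjusted p = 0.0718).

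Members below the filter on the class II side were H2-Ea, H2-Eb2, the pseudogenes H2-Pa and H2-Pb, and Ciita. Ciita, the master activator of class II transcription, was at 0.478, 0.360 and 0.977 TPM in the WT pools and at 2.17 and 0.426 in the Cebpa-KO pools. The order of its first and second libraries was that of the class II chains. H2-Ea, the α chain of I-E, was at most 0.0744 in any library, and H2-Eb2 at most 0.486.

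The wider pathway was followed in 6 lists, in which 9 of 55 tested genes were higher (16.4%, against 9.93% of all genes) and 6 lower (10.9%, against 9.82%, near the background). No proteasome gene was called lower. Of 5 immunoproteasome genes, whose products favour peptides that fit class I, only Psme2, a subunit of the PA28 activator, rose (824 to 878 TPM in WT, 1156 and 1273 in Cebpa-KO, log2 0.51, adjusted p = 0.0194). The catalytic subunits Psmb8 (log2 0.19), Psmb9 (0.13) and Psmb10 (0.27) did not pass. Of 7 constitutive β subunits 3 rose, Psmb2 (log2 0.43), Psmb4 (0.37) and Psmb7 (0.44), and all 7 had groups without overlap, beside 9.93% of all genes called higher and 56.7% without overlap.

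Among 6 chaperones of class I loading 3 rose (50%, against 9.93% of all genes). Calreticulin (Calr) was at 516 to 602 TPM in the WT pools and 758 and 727 in the Cebpa-KO pools (log2 0.42, adjusted p = 0.0365). Calnexin (Canx), a lectin chaperone of new heavy chains, rose by a log2 of 0.40 (adjusted p = 0.0270), and the disulfide isomerase Pdia6 by 0.59 (adjusted p = 0.0128). Pdia3, the isomerase of the loading complex, did not pass (log2 0.22, adjusted p = 0.109).

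In class II processing 1 of 11 tested genes was higher (9.09%, against 9.93% of all genes) and 2 were lower (18.2%, against 9.82%). Cathepsin L (Ctsl), an endosomal protease that degrades the invariant chain in thymic epithelium, was at 25.6, 19.6 and 24.1 TPM in the WT pools and at 6.61 and 6.73 in the Cebpa-KO pools (log2 -1.64, adjusted p = 0.00643). Cd83, which protects surface class II from ubiquitination, was at 407 to 481 in the WT pools and 323 and 308 in the Cebpa-KO pools (log2 -0.47, adjusted p = 0.0317). Hspa5, the endoplasmic reticulum chaperone BiP, rose (log2 0.95, adjusted p = 0.0274). Cathepsin S (Ctss), the protease of the invariant chain in B cells and dendritic cells, was at 267 to 287 in the WT pools and at 301 and 295 in the Cebpa-KO pools and was not called.

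None of the 10 genes of the class II enhanceosome (the RFX, NF-Y and CREB factors and their partners) was called. An unadjusted p under 0.05 was seen for 1 of them, beside 6113 of all 16254 genes, of which 19.7% were called. There were 16 interferon regulators, which include the main inducers of MHC genes. Of these, 4 fell (25%, against 9.82% of all genes) and 1 rose (6.25%, against 9.93%). All 4 that fell are receptor chains: Ifnar1 (129 to 141 TPM in WT, 71.0 and 76.9 in Cebpa-KO, log2 -0.85), Ifnar2 (log2 -0.71), Ifngr1 (-0.89) and Ifngr2 (-0.73). Socs1, an inhibitor of interferon signalling, was at 31.9 to 34.3 in WT and rose to 60.5 and 56.1 in Cebpa-KO (log2 0.81, adjusted p = 0.00772). Irf1 (log2 -0.26) and Irf7 (0.76) did not pass.

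Without Cebpa-KO replicate 1, or without replicate 2, none of the wider pathway genes passed in either direction. Over all genes, 9 were then called higher and 25 lower without replicate 1, and 5 higher and 18 lower without replicate 2, in place of 1614 and 1596. Without WT replicate 2, 1 pathway gene was higher and 2 were lower.

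Most members lie on chromosome 17, in the MHC that the H2- prefix names, so the choice by name fixed their closeness in advance. Between the first and the last H2 gene, 3.60 megabases from 34193608 to 37794443 on mm39, 122 other genes were tested. Of these 8 were higher (6.56%) and 10 lower (8.20%), beside 9.93% and 9.82% of all genes. Their median log2 difference was -0.003. The 32 tested members in the same stretch held 2 higher (6.25%) and 3 lower (9.38%), with a median of -0.32. H2-Ob lies between Tap2 and H2-Ab1, neither of which was called, and H2-Q6 and H2-Q7 follow H2-Q5, which was not called.

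**Figure D5:**
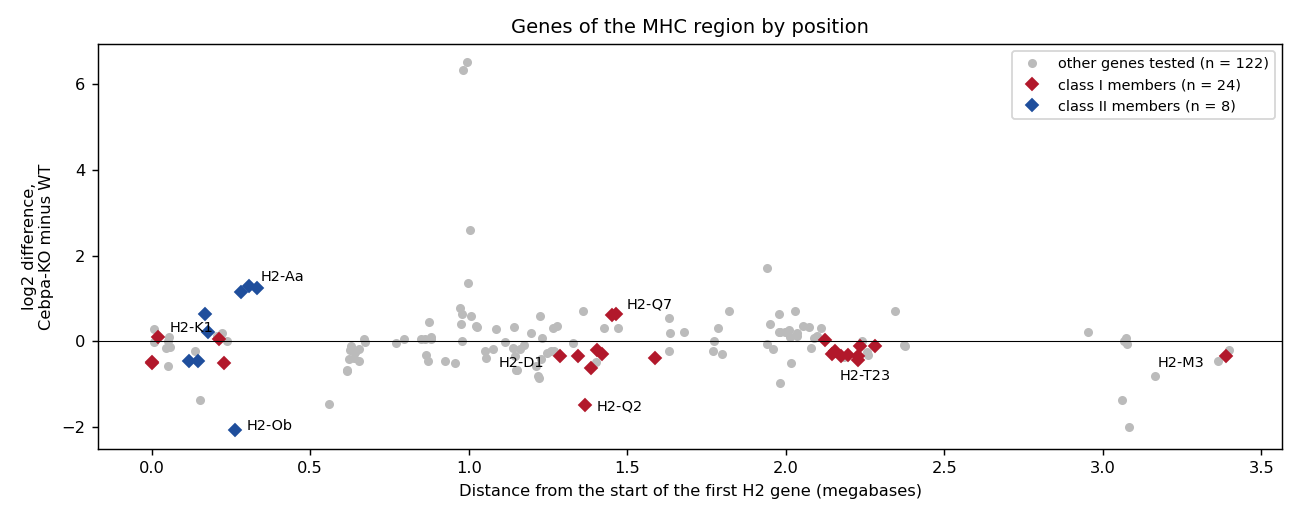
Log2 difference, Cebpa-KO minus WT, of each tested gene of the MHC region against its distance from the start of the first H2 gene, in megabases. Class I members are red, class II members blue and the 122 other genes grey. The class II chains at about 0.3 megabases lie above 0 with H2-Ob below them, and H2-Q2 lies below H2-Q6 and H2-Q7; the 2 grey points above 6 are the heat shock genes Hspa1a and Hspa1b, neither of them called, which were also high in WT replicate 3 (690 and 880 TPM).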

How the data were processed

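RNA-seq of 5 libraries (3 WT, 2 Cebpa-KO) of sorted splenic Tfr cells was analysed. Per the labels' protocols, cDNA came from SMART-Seq v4 and libraries from Nextera XT. Alignment and assembly tools in the submitters' processing notes are STAR 2.7.11b and StringTie 2.1.3b, with build mm39. Which annotation release, strandedness and read length were used is not given, so overlapping antisense genes cannot be told apart. The TPM values deposited by the authors were treated as a score, since the column lists annotated genes and the loci assembled in each library side by side; annotated rows were used. Depth was taken from the ratio of coverage to FPKM, both deposited by the authors (coverage is a signal averaged over bases). No read counts were used, so no counting intervals or detection floors are given.

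Annotated TPM was divided by each library's median ratio to the geometric mean (factors 0.984 to 1.04). Genes that reached a TPM of 1 in 2 or more of the 5 libraries were tested by limma 3.58.1 (R 4.3.3, trend on mean level) on log2(scaled TPM + 1), with Benjamini-Hochberg adjustment over all 16254 genes and a threshold of 0.05. On that scale the change of low genes is understated. The script was tested on simulated data. Library pairs held no identical values.

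The members, the pathway and marker lists and the tests were chosen with earlier results of these data known. Every member could be named, as could Cebpa, Foxp3, up to 6 genes with the smallest p of each list and genes whose level a sentence rests on. Psmb8, Psmb9, Psmb10, Pdia3, Ctss, Irf1, Hspa1a and Hspa1b were also named after their values were seen, as was the order of libraries. Windows of 75 bases shared between genes came from GENCODE M21 transcripts, which are on another build and gave no coordinates. Promoters came from RefSeq on GRCm38.p6. In all, 15 alternatives were run. Assembled loci in place of annotated rows were added, and their matching rule settled, after seeing the data: loci were summed where the overlap covered 50% of the locus or of the gene. Some genes of these lists are not reported here by name.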

Additional observations from a re-analysis of the deposited data

How the results depend on the processing

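Both class I counts fell to 0 without either Cebpa-KO library. The class I count higher also fell to 0 without WT replicate 1 or 2, and the class II count lower without WT replicate 1 or 2 or Cebpa-KO replicate 2. Class I members higher in Cebpa-KO numbered 3, but 0 with no filter, 0 against WT replicate 3 alone, 1 on assembled loci, and 0 to 3 when 1 library was left out. Class I members lower numbered 3, but 5 with quantile normalization, 7 with array weights, 1 on assembled loci, and 0 to 4 with 1 library left out. No class II member was called higher under any of the 15 alternatives. Class II members lower numbered 1, but 0 with no filter, 2 with array weights, 0 against WT replicate 3 alone, and 0 to 1 with 1 library left out. Pathway genes higher numbered 9, but 4 with no filter, 15 with array weights, 2 against WT replicate 3 alone, and 0 to 11 with 1 library left out. Pathway genes lower numbered 6, but 3 with no filter, 10 with array weights, and 0 to 6 with 1 library left out. Over all genes, 1614 were higher and 1596 lower. These became 930 and 629 with no filter, 2575 and 2440 with array weights, 1014 and 647 against WT replicate 3 alone, and 5 to 2177 and 18 to 1825 with 1 library left out. Where a group was left with 1 library, that library was assumed to vary like the other group. The causes of these shifts were not tested.

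Replicate numbers 1 and 2 occur in both groups. Deviations from the group mean correlated at -0.18 between the libraries numbered 1 and 0.27 between those numbered 2. With 2 Cebpa-KO libraries, their deviations are mirror images (correlation -1), so these values cannot show whether libraries are paired. Nothing in the labels pairs them. With the replicate number as a block, WT replicate 3 was alone in its block and added nothing to the group difference. That fit thus compared Cebpa-KO with WT replicates 1 and 2. Class I members higher then numbered 1 and lower 4, and class II members lower 2. Pathway genes higher numbered 4 and lower 5, and all genes 1359 higher and 1050 lower. H2-T24 (log2 -0.10) and Psmb9 (-0.012) then changed sign.

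Every log2 difference that changed sign was uncalled before and after. On assembled loci these were H2-K1 (-0.44), H2-Q5 (0.51), H2-Q10 (1.08), H2-Bl (0.087), H2-DMb1 (-0.47) and Ganab (0.16), loci that can span neighbouring genes. Against WT replicate 3 alone they were H2-K1 (-0.35), B2m (-0.034), Cd74 (-0.077) and H2-Oa (0.12). Array weights turned H2-T24 (-0.031) and quantile normalization turned Tap1 (-0.0069). With 1 library left out, the log2 difference ran from -0.071 to 0.31 for H2-K1, -0.055 to 0.083 for B2m, -0.10 to 0.10 for H2-T24, -0.25 to 0.028 for H2-T10, -0.0066 to 0.13 for Tap1, -0.0021 to 2.33 for H2-Ab1, -0.11 to 0.93 for Cd74, -1.05 to 0.12 for H2-Oa, -0.22 to 1.51 for H2-DMb2, -0.44 to 0.89 for H2-DMb1, -0.016 to 0.24 for Psmb9 and -0.31 to 0.028 for Uggt1. The 7 called members kept their direction under every alternative that tested them.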

Other observations

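Ratios within a library compare members without scaling between libraries. Cd74 was 5.70, 6.77 and 3.68 times the summed TPM of H2-Aa, H2-Ab1 and H2-Eb1 in WT and 1.93 and 4.59 times in Cebpa-KO. The ratio was lowest in Cebpa-KO replicate 1 and next lowest in WT replicate 3, the libraries where the class II chains were highest. H2-DMa was 4.82, 5.74 and 3.52 times the sum of the H2-DM β chains in WT and 1.39 and 3.69 times in Cebpa-KO. H2-Aa was 0.339 to 0.396 times H2-Ab1 in WT and 0.392 and 0.420 times in Cebpa-KO, so the chains of I-A kept nearly the same ratio while their levels varied over the libraries. H2-Ob was 1.03, 1.14 and 0.352 times H2-Ab1 in WT and 0.0568 and 0.0971 times in Cebpa-KO.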
